A study of Homo sapiens with 6 samples.

Results

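The core genes of the circadian clock were followed in 2 Ewing sarcoma cell lines treated with THZ1, a covalent inhibitor of the transcriptional kinase CDK7. The genes are PER1, PER2, PER3, CRY1, CRY2, NR1D1, NR1D2, BHLHE40, CLOCK and ARNTL. They were taken by symbol from the deposited expression table, which lists all 10 of them among 27420 genes. The rule itself uses no measured value, but the list was chosen with earlier results of these data known. A673 and SKNMC, a line that some labels spell SKMNC, are established lines derived from Ewing sarcoma, a bone and soft tissue tumour that carries a fusion of EWSR1 with an ETS gene. Each line was kept in the vehicle DMSO, in 50 nM THZ1 or in 200 nM THZ1 for 6 h, and RNA-seq was done on 1 library per condition, 6 libraries in all. Since replicates are lacking, no difference within a line has an error between cultures to be judged by, and the only p-values come from a fit over both lines, given further on. The labels name no step that would synchronise the cells and give a single time point, so the values are levels in a culture and say nothing of phase or rhythm.

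The clock of mammalian cells is a transcriptional feedback loop. CLOCK and ARNTL, also called BMAL1, form a dimer that binds E-box sequences and activates the PER, CRY and NR1D genes. PER and CRY proteins then return to the nucleus and repress CLOCK and ARNTL, while NR1D1 and NR1D2, also known as REV-ERB alpha and beta, repress ARNTL through ROR response elements. BHLHE40, also known as DEC1, is a repressor that acts on the same E-boxes, and the PAR bZIP factors DBP, TEF and HLF act on D-boxes, where NFIL3 opposes them.

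Expression is given as FPKM, fragments mapped per unit of transcript length and of library depth, so that levels can be set side by side between genes, and each value is a share of its own library. The FPKM listed in a library summed to between 97.78% and 100.54% of the sum in the DMSO library of its line. Since FPKM divides by library depth, such sums do not show whether the RNA per cell was equal. A value above DMSO is thus a larger share of its library and may not be a larger amount per cell. All 8 Ewing sarcoma markers examined, FLI1 among them, were above 1 FPKM in all 6 libraries. FLI1 itself was at 31.5, 15.0 and 4.26 FPKM in A673 and 27.3, 15.2 and 4.56 FPKM in SKNMC with DMSO, 50 nM and 200 nM. Summed, the 8 markers were at 845, 863 and 954 FPKM in A673 and 852, 742 and 742 FPKM in SKNMC. Of 4 listed markers of other cell types, none was above 1 FPKM in A673, and PTPRC, a leukocyte marker, was at 10.2, 7.90 and 13.1 FPKM with DMSO, 50 nM and 200 nM in SKNMC, where EPCAM, MYOD1 and ALB stayed below 1 FPKM. The summed level of these 4 markers ran from 0.043 to 0.101 FPKM in A673 and from 8.4 to 14.0 FPKM in SKNMC. Its part in the values below was not tested. In such bulk samples fewer cells of a type and less RNA per cell cannot be told apart.

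The promoter windows of 6 of the 10 genes held a match to a motif named below, and a window of each of these genes is printed. The share of all genes with a match to any of these motifs was not computed, and the shares per motif follow. Of the ROR response element only the core was searched, so a match to it is not a full element. Each runs from 250 bases before to 50 bases after a transcription start of RefSeq (GRCh38.p14), 5′ to 3′ on the strand of the gene, with the matches in capitals. All 10 genes were found there, in 15 windows, with ARNTL under its current symbol BMAL1. The motifs were searched on both strands: the E-box CACGTG, the core AGGTCA of the ROR response element, the D-box TTATGTAA and the cyclic AMP response element TGACGTCA.
PER1, chr17:8152355-8152654, minus strand: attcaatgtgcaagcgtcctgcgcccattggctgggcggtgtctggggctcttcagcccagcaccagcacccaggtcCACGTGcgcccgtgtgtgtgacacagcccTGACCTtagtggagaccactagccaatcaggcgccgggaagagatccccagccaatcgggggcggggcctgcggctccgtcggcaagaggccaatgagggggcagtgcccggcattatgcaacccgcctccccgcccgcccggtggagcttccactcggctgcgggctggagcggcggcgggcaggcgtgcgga
PER3, chr1:7784041-7784340, plus strand: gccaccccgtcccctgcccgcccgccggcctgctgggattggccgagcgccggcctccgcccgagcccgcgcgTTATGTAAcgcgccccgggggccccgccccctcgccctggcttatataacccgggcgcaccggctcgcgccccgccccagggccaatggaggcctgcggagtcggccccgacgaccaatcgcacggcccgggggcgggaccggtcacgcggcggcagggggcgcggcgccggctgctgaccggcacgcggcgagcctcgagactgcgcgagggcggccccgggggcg
CRY2, chr11:45847225-45847524, plus strand: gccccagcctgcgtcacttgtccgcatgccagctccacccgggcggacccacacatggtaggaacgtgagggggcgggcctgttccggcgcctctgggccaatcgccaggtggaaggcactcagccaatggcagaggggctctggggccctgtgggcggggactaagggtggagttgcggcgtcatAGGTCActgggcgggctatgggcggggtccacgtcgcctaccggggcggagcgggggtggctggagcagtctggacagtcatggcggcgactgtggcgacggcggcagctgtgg
NR1D2, chr3:23945871-23946170, plus strand: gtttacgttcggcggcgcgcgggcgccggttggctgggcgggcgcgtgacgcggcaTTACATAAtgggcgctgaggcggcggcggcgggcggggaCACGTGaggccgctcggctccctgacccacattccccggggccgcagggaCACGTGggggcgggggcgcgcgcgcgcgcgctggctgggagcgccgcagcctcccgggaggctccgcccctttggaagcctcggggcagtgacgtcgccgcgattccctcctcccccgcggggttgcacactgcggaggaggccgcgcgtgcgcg
BHLHE40, chr3:4979187-4979486, plus strand: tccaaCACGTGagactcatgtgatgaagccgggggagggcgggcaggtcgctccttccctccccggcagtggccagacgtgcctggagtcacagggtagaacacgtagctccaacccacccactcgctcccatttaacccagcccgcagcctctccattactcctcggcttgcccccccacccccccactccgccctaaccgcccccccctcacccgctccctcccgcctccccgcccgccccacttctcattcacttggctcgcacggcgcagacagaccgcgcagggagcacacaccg
ARNTL, chr11:13277540-13277839, plus strand: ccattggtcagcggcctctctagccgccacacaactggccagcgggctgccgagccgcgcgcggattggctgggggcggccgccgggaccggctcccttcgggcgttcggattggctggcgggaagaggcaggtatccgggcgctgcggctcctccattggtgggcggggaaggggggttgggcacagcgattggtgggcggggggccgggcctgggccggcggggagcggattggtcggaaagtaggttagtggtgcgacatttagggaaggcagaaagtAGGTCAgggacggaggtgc

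An E-box lay in PER1 at -173, in NR1D2 at -155 and -105 and in BHLHE40 at -245, counted as the first base of the match from the start site. It was present in 3 of 15 windows of the clock genes and in 7.26% of all 35116 windows of this length. The ROR core lay in PER1 at -144, read on the other strand as TGACCT, in CRY2 at -64 and in ARNTL at 32 after the start. It was present in 4 of the 15 windows and in 13.8% of all windows, the fourth being another start of CRY2 with the match at -62. A D-box lay in PER3 at -177 and in NR1D2 at -194, where it reads TTACATAA, in 2 of 15 windows against 0.886% of all. The full cyclic AMP response element was in 0 of the 15 windows and in 1.85% of all, and its shorter form TGACG, which is also part of the full element, in 7 of 15 against 24.6%; these last matches are not in capitals. A match describes letters in a window and is no measure of binding.

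In the absence of THZ1 the 10 genes were expressed at low to moderate levels, and their ranges overlapped between the lines. The level lay between 0.683 and 22.0 FPKM in A673 and between 1.5 and 12.1 FPKM in SKNMC. With a gene called active above 1 FPKM in the DMSO library of its line, 8 of the 10 were active in A673 and all 10 in SKNMC, where 40.4% and 43.4% of all listed genes were. PER2, at 0.683 FPKM, and PER3, at 0.995 FPKM and so just under the limit, were the inactive genes of A673, while NR1D1, at 1.45 FPKM, lay just above it.

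**Figure D1:**
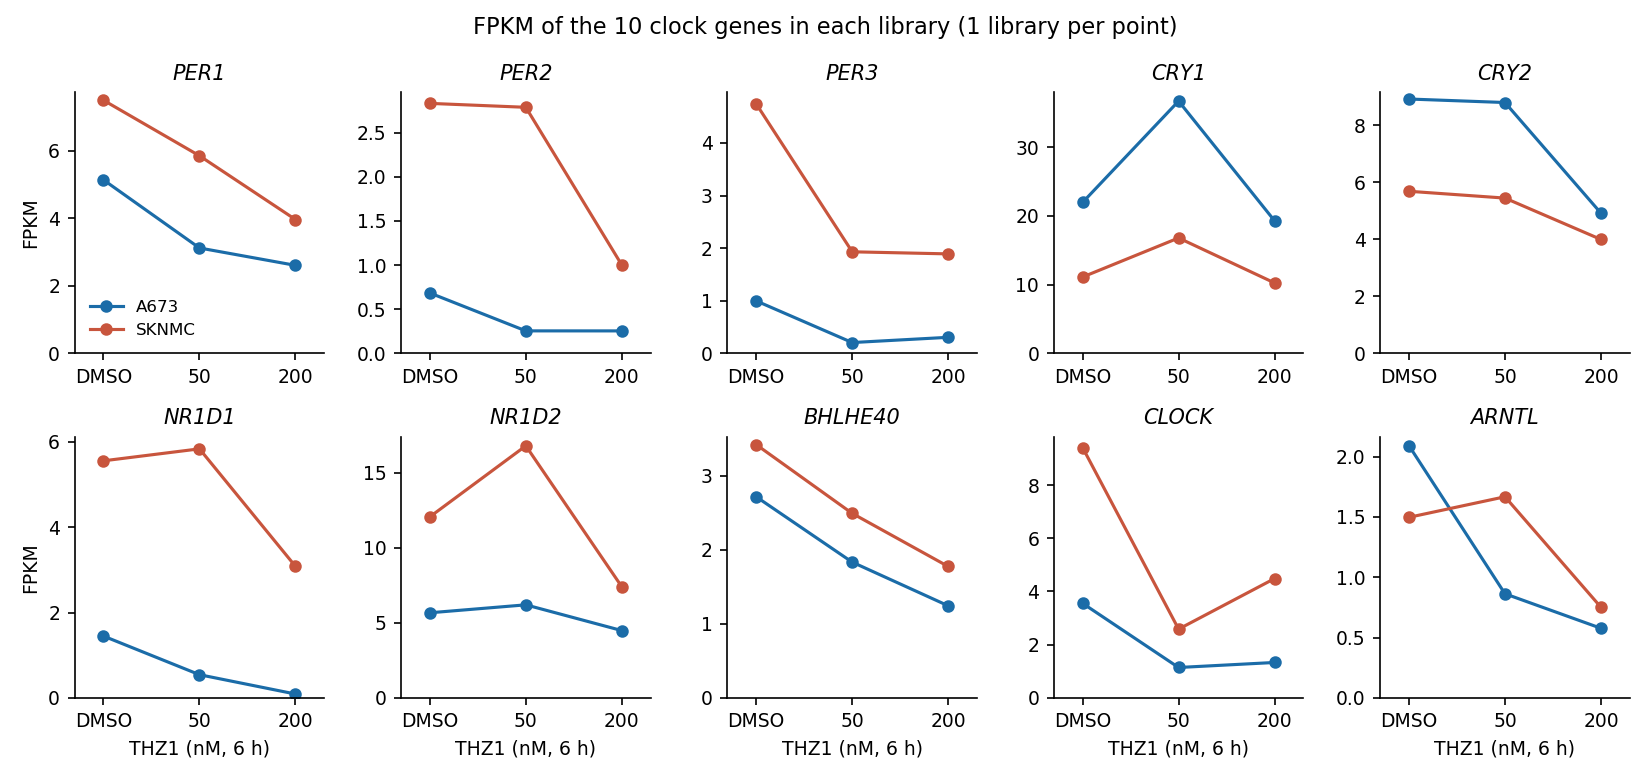
FPKM of the 10 clock genes (y axis, linear, from 0 in each panel) with DMSO, 50 nM and 200 nM THZ1 (x axis), with 1 point per library, lines joining the libraries of a cell line, and no error bars since each condition is 1 library. CRY1 peaks at 50 nM in both lines (36.7 FPKM in A673, 16.8 in SKNMC), whereas CLOCK is lowest at 50 nM in both (1.14 and 2.58).

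CRY1 had the highest value of the 10 in 5 of the 6 libraries, among them SKNMC with 50 nM, where CRY1 and NR1D2 were level at 16.8 FPKM each, and NR1D2 had it in SKNMC with DMSO. In A673 with DMSO the order was CRY1, CRY2, NR1D2, PER1, CLOCK, BHLHE40, ARNTL, NR1D1, PER3 and PER2. CRY1 stood 2.46-fold above CRY2, and every other neighbour in this order was within 1.57-fold. In SKNMC with DMSO the order was NR1D2, CRY1, CLOCK, PER1, CRY2, NR1D1, PER3, BHLHE40, PER2 and ARNTL. The steps there ran from 1.02-fold, between CRY2 and NR1D1, to 1.89-fold, between PER2 and ARNTL. Without replicates none of these steps can be called larger than the spread between cultures.

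The untreated lines differed in 4 genes by at least 2-fold, all of them lower in A673, on the scale of log2(FPKM + 1) that is used for all ratios below. These were PER3 (-1.52 on the log2 scale, A673 over SKNMC), NR1D1 (-1.42), PER2 (-1.19) and CLOCK (-1.19). Of 12399 genes active in either line, 15.0% were at least 2-fold lower in A673 and 8.42% at least 2-fold higher. Against this, 4 of 10 clock genes were lower and 0 higher, and their median was -0.72, compared with -0.11 over those 12399 genes. PER2 and PER3 were active in SKNMC only, the line where they were higher. They are among the 12399 genes through SKNMC alone, and any gene that enters through 1 line alone is lower in the other. All 10 clock genes were counted whatever their level. As plain FPKM, PER3 was 4.76-fold, PER2 4.15-fold, NR1D1 3.84-fold and CLOCK 2.65-fold higher in SKNMC. CRY1 (0.92 on the log2 scale), CRY2 (0.57) and ARNTL (0.31) were higher in A673, and PER1 (-0.47), NR1D2 (-0.97) and BHLHE40 (-0.25) lower, so that 7 of 10 were lower in A673 by any amount, against 56.0% of the 12399 genes. These directions were the same when libraries were rescaled to a common sum, to the 75th percentile of active genes or to the median of the ribosomal protein genes, except for BHLHE40, which turned with the last of these. The size did depend on it: with the ribosomal protein scaling PER2 (-0.87) and CLOCK (-0.79) were no longer past 2-fold and CRY1 (1.34) was, which gave 2 lower and 1 higher, against 8.98% and 16.6% of the 12399 genes, and a median of -0.32.

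CLOCK, the histone acetyltransferase subunit of the activating dimer, was lower in all 4 THZ1 libraries than in the DMSO library of its line. Its gene (ENSG00000134852) spans 119 kb at chr4:56294069-56413305 in hg19, the longest span of the 10. In A673 it was at 3.56 FPKM with DMSO, 1.14 with 50 nM and 1.33 with 200 nM. SKNMC had 9.41 FPKM with DMSO, 2.58 with 50 nM and 4.49 with 200 nM. The lower dose thus went with the lower level in both lines, at 32.1% and 27.5% of DMSO against 37.4% and 47.7% at 200 nM. The log2 ratios to DMSO were -1.09 and -0.97 in A673 and -1.54 and -0.92 in SKNMC at 50 and 200 nM. At 50 nM in SKNMC, 4.56% of active genes had a lower ratio than CLOCK, and in A673 13.4%, compared with 26.3% and 30.6% at 200 nM in A673 and SKNMC. CLOCK was below DMSO in all 4 comparisons, and higher at 200 nM than at 50 nM in both lines, under each of the 3 rescalings. TMEM165, on the other strand, overlaps 21.4% of the CLOCK span. TMEM165 was at 28.7, 17.1 and 15.2 FPKM in A673 and at 54.9, 26.0 and 23.9 FPKM in SKNMC, and whether its reads enter the CLOCK value was not tested.

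ARNTL, the partner of CLOCK, differed between the lines at 50 nM. The gene (ENSG00000133794) spans 111 kb at chr11:13298198-13408813 in hg19. It was at 2.09, 0.863 and 0.577 FPKM in A673 and at 1.5, 1.67 and 0.751 FPKM in SKNMC with DMSO, 50 nM and 200 nM. A673 kept 41.3% of its DMSO level with 50 nM and 27.6% with 200 nM, while SKNMC stood at 111% and 50.2%. The log2 ratios were -0.73 and -0.97 in A673 and 0.10 and -0.51 in SKNMC. The small higher value at 50 nM in SKNMC turned to lower when scaled to the ribosomal protein genes, so its direction is not settled. Taken as a sum, CLOCK and ARNTL came to 5.65, 2.0 and 1.91 FPKM in A673 and to 10.9, 4.25 and 5.24 FPKM in SKNMC.

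The PER genes encode the repressors whose gradual build-up and turnover times the loop, and all of them were below DMSO in each THZ1 library. PER1 (ENSG00000179094, chr17:8043789-8059824, hg19) was at 5.14, 3.12 and 2.60 FPKM in A673 and at 7.49, 5.85 and 3.96 FPKM in SKNMC with DMSO, 50 nM and 200 nM. Its level went down with dose in both lines, to 50.7% and 52.9% of DMSO at 200 nM, with log2 ratios of -0.58 and -0.77 in A673 and -0.31 and -0.78 in SKNMC. A gene listed as RP11-599B13.6 shares 35.5% of the PER1 span on the same strand and was listed near 0 FPKM in all 6 libraries, and how reads were divided between them was not tested. PER2 (ENSG00000132326, chr2:239152678-239198743) was at 0.683, 0.254 and 0.253 FPKM in A673 and at 2.83, 2.79 and 1.00 FPKM in SKNMC. In SKNMC it stood at 98.4% of DMSO with 50 nM and at 35.3% with 200 nM (-0.02 and -0.94 on the log2 scale), and the first of these turned to higher when scaled to the 75th percentile. In A673 both doses left 37.1% of a level that was already under 1 FPKM, where the log2 ratio of -0.43 at each dose understates the difference.

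PER3 (ENSG00000049246, chr1:7844379-7905237, hg19) had the lowest log2 ratios of the PER genes in SKNMC, although PER2 kept less of its plain FPKM at 200 nM. Its level in that line was 4.74 FPKM with DMSO, 1.93 with 50 nM and 1.89 with 200 nM, compared with 0.995, 0.203 and 0.303 FPKM in A673. SKNMC thus kept 40.7% and 39.9% of its DMSO level, or -0.97 and -0.99 on the log2 scale, which places it just inside 2-fold. A673 kept 20.4% and 30.4%, from a level at the limit of activity (-0.73 and -0.61 on the log2 scale). The neighbour UTS2 overlaps 3.44% of the PER3 span on the other strand and was more abundant, at 10.7 to 15.6 FPKM in A673 and 62.5 to 68.9 FPKM in SKNMC, and whether its reads enter the PER3 value was not tested. Summed, the PER genes came to 6.81, 3.58 and 3.16 FPKM in A673 and 15.1, 10.6 and 6.85 FPKM in SKNMC.

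The cryptochromes, the partners of PER in repressing the dimer, differed from each other. CRY1 (ENSG00000008405, chr12:107385141-107487607, hg19) was at 22.0 FPKM with DMSO, 36.7 with 50 nM and 19.3 with 200 nM in A673. SKNMC had 11.1, 16.8 and 10.2 FPKM. The level at 50 nM was the highest in both lines, at 167% and 151% of DMSO, and the level at 200 nM was near DMSO, at 87.8% and 92.2%. The log2 ratios were 0.72 and -0.18 in A673 and 0.56 and -0.11 in SKNMC. At 50 nM, 99.1% of active genes in A673 and 97.3% in SKNMC had a lower ratio than CRY1. CRY1 stayed above DMSO at 50 nM under each rescaling, from 0.50 to 0.96 in A673 and from 0.24 to 0.83 in SKNMC, whereas its direction at 200 nM turned to higher in both lines when scaled to the 75th percentile.

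CRY2 (ENSG00000121671, chr11:45868668-45904798, hg19) showed no such peak. It was at 8.92, 8.80 and 4.91 FPKM in A673 and at 5.68, 5.44 and 3.99 FPKM in SKNMC with DMSO, 50 nM and 200 nM. At 50 nM it was at 98.6% and 95.8% of DMSO, differences whose sign depended on the scaling, and at 200 nM at 55.1% and 70.3% (-0.75 and -0.42 on the log2 scale), of which the SKNMC value also turned with the 75th percentile scaling. As a result CRY1 exceeded CRY2 by 2.46-fold in A673 with DMSO, 4.17-fold with 50 nM and 3.92-fold with 200 nM, and by 1.95-fold, 3.08-fold and 2.56-fold in SKNMC.

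The REV-ERB genes, the nuclear receptors that repress ARNTL, separated most in A673. NR1D1 (ENSG00000126368, chr17:38249039-38256978, hg19) was at 1.45, 0.542 and 0.0894 FPKM in A673 with DMSO, 50 nM and 200 nM, the lowest level of any of the 10 genes. SKNMC had 5.56, 5.84 and 3.08 FPKM. A673 kept 37.5% and 6.18% of the DMSO level, with log2 ratios of -0.67 and -1.17, while SKNMC kept 105% and 55.5% (0.06 and -0.68). The small higher value at 50 nM in SKNMC turned with the ribosomal protein scaling. A value as low as 0.0894 FPKM rests on few fragments, and how many is not known from FPKM. THRA overlaps 13.6% of the NR1D1 span on the other strand, at 4.59, 3.56 and 4.01 FPKM in A673 and 20.1, 14.9 and 14.0 FPKM in SKNMC, and whether its reads enter the NR1D1 value was not tested.

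NR1D2 (ENSG00000174738, chr3:23986750-24022109, hg19) was at 5.66, 6.19 and 4.48 FPKM in A673 and at 12.1, 16.8 and 7.40 FPKM in SKNMC. Like CRY1 it was highest at 50 nM in both lines, at 109% and 139% of DMSO, and it was lower than DMSO at 200 nM, at 79.1% and 61.4%. The log2 ratios were 0.11 and -0.28 in A673, which each turned under a rescaling, and 0.45 and -0.64 in SKNMC, which kept their sign under all 3. In SKNMC 95.6% of active genes had a lower ratio at 50 nM than NR1D2. Part of the NR1D2 span, 3.77%, is shared with NKIRAS1 on the other strand, which was at 14.9, 4.80 and 2.98 FPKM in A673 and 9.19, 3.92 and 2.07 FPKM in SKNMC, lower at 50 nM where NR1D2 was higher. NR1D2 exceeded NR1D1 by 3.91-fold, 11.4-fold and 50.1-fold in A673 with DMSO, 50 nM and 200 nM, and by 2.17-fold, 2.88-fold and 2.40-fold in SKNMC.

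BHLHE40 (ENSG00000134107, chr3:5020800-5027008, hg19), the shortest of the 10 genes with a span of 6.21 kb, went down with dose in both lines. It was at 2.71, 1.83 and 1.24 FPKM in A673 and at 3.42, 2.49 and 1.77 FPKM in SKNMC. That left 67.5% and 45.8% of DMSO in A673 and 72.9% and 51.9% in SKNMC, with log2 ratios of -0.39 and -0.73 and of -0.34 and -0.67, all 4 of them negative under each rescaling.

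**Figure D2:**
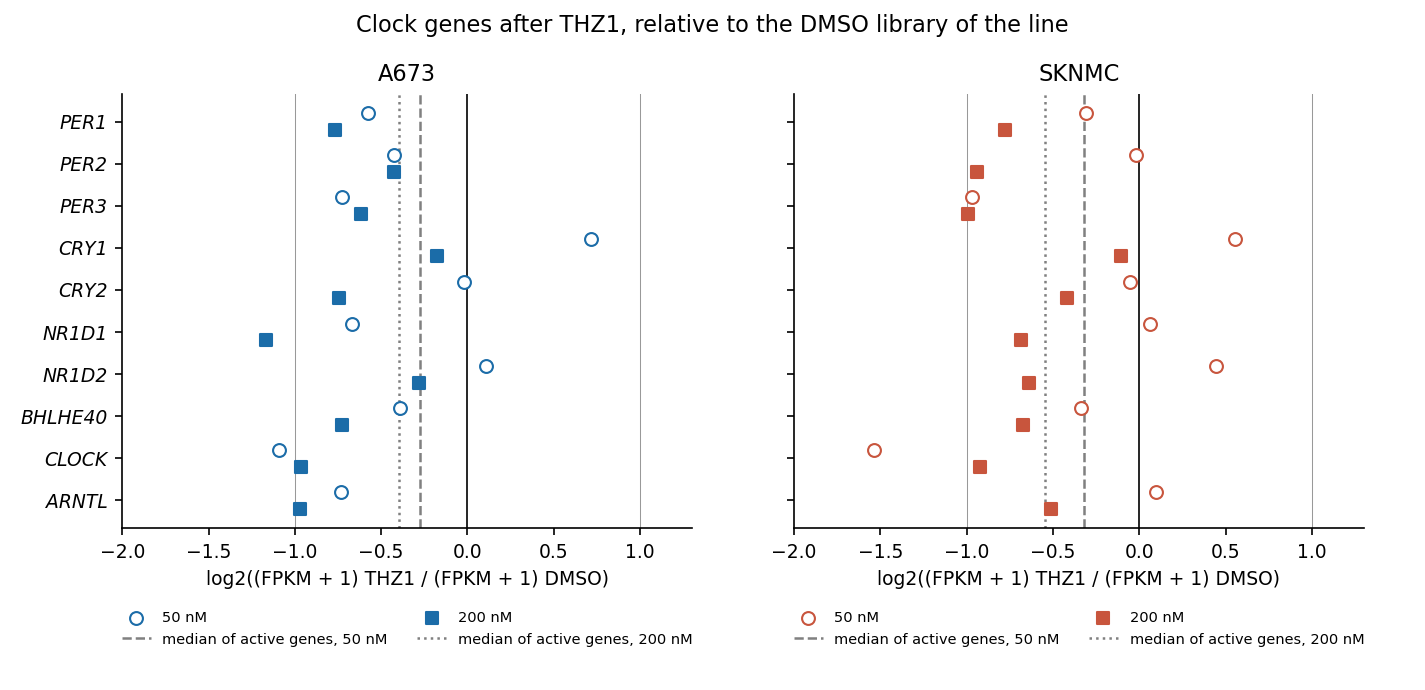
Log2 ratio of FPKM + 1 with THZ1 to FPKM + 1 with DMSO (x axis) for each clock gene (y axis), with 1 panel per line, open circles for 50 nM, filled squares for 200 nM and no error bars since each condition is 1 library. The dashed and dotted lines are the medians of all active genes at 50 and 200 nM, and the thin lines at -1 and 1 mark 2-fold. CLOCK is below 0 in all 4 comparisons (-1.54 at its lowest, SKNMC at 50 nM), and CRY1 is the highest at 50 nM in both lines (0.72 and 0.56).

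On the deposited scale, between 0 and 1 of the clock genes were at least 2-fold lower in each comparison with DMSO. At 50 nM in A673, CLOCK alone was at least 2-fold lower, 1 of 8 active clock genes, where 15.9% of all 11077 active genes were. At 200 nM in A673 it was NR1D1 alone, 1 of 8 against 25.3%. At 50 nM in SKNMC it was again CLOCK, 1 of 10 against 15.8% of 11896 active genes, and at 200 nM 0 of 10 against 27.3%, with PER3 (-0.99) nearest to the limit. None of the 10 was at least 2-fold higher in any comparison, where 0.343% and 0.126% of active genes were in A673 at 50 and 200 nM, and 0.471% and 0.462% in SKNMC. Active genes are chosen by their DMSO level, which leaves out genes expressed only with THZ1. Among genes above 1 FPKM in any library of the line, the shares higher were 0.641% and 0.606% in A673 and 0.671% and 0.9% in SKNMC. NR1D1 in A673 was above that limit with DMSO alone. By plain FPKM, with nothing added, 3 of 8 active clock genes were at or below 50% of DMSO at 50 nM and 4 of 8 at 200 nM in A673, against 22.4% and 31.8% of active genes. In SKNMC 2 of 10 and 3 of 10 were, against 23.5% and 35.0%. With the ribosomal protein scaling 5 of 8 were at least 2-fold lower in A673 and 7 of 10 in SKNMC at 200 nM, against 34.7% and 49.5% of active genes. These shares are from so few genes that a difference of 1 gene moves them by 10 percentage points or more.

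All 10 clock genes were below DMSO at 200 nM in A673, where 8 of them were active, and all 10 in SKNMC. Of all active genes 70.4% were below DMSO in A673 and 80.8% in SKNMC. Scaling to the 75th percentile put CRY1 and NR1D2 above DMSO in A673 and CRY1 and CRY2 in SKNMC. At 50 nM 6 of the 8 active clock genes were below DMSO in A673, or 8 of 10 with PER2 and PER3, and 6 of 10 in SKNMC, where 70.1% and 73.0% of active genes were. Across the active clock genes of A673 the median log2 ratio was -0.48 with 50 nM and -0.76 with 200 nM, compared with -0.27 and -0.40 over all active genes. In SKNMC it was -0.03 and -0.68, compared with -0.32 and -0.55. The scaling shifts all genes together. The 75th percentile scaling raised the median ratio of active genes by 0.22 (50 nM) and 0.32 (200 nM) in A673, and by 0.25 and 0.48 in SKNMC. With the ribosomal protein scaling the shift was -0.19 and -0.29 for A673, then -0.28 and -0.44 for SKNMC. Rescaling to a common sum moved it by no more than 0.03. Of the 40 ratios to DMSO, 30 kept their direction under all 3 rescalings and 10 did not. All comparisons of a line share its DMSO library. Of the 8 clock genes active in both lines, 0 lay above DMSO at both doses in 1 line and below it at both in the other, where 5.27% of 10574 genes active in both lines did.

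The doses can be compared over both lines in a fit that takes cell line and dose as additive terms, which was added after the values had been seen. It used limma on log2(FPKM + 1) of the 6 libraries, over 12399 genes active in either line, with p-values adjusted by Benjamini-Hochberg over all of them. The spread it uses starts from the disagreement between the 2 lines, with 2 residual degrees of freedom, and is not that between cultures. It is moderated towards a trend over all tested genes, with 7.95 prior degrees of freedom. Most of the error of a gene is thus borrowed from other genes. In the fits below that leave out a 50 nM library the prior was infinite, so a gene's own disagreement did not enter. At 50 nM, CLOCK (-1.31 ± 0.19 SE, mean log2 ratio of the lines, adjusted p = 0.000657) and PER3 (-0.85 ± 0.20, adjusted p = 0.00793) were lower and CRY1 (0.64 ± 0.15, adjusted p = 0.0087) higher. That is 2 of 10 clock genes lower and 1 higher, where 32.1% and 4.11% of all tested genes were.

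At 200 nM 8 of the 10 passed the same limma test as lower and 0 as higher, where 45.7% and 5.13% of all tested genes did. NR1D1 (-0.93 ± 0.22, adjusted p = 0.005) and CLOCK (-0.95 ± 0.19, adjusted p = 0.00239) had the lowest means, followed by PER3 (-0.80), PER1 (-0.77), ARNTL (-0.74), BHLHE40 (-0.70), PER2 (-0.68) and CRY2 (-0.58). CRY1 (-0.14, adjusted p = 0.458) and NR1D2 (-0.46, adjusted p = 0.0706) did not pass. Between the doses, CRY1 (-0.78 ± 0.15, adjusted p = 0.00521) and NR1D2 (-0.74 ± 0.19, adjusted p = 0.0224) were lower at 200 nM than at 50 nM, 2 of 10 clock genes against 18.2% of all tested genes, and 0 of 10 were higher, against 2.13%. The higher level of CLOCK at 200 nM than at 50 nM did not pass (0.37 ± 0.19, adjusted p = 0.222).

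In 11 other settings of the fit, which are 3 rescalings, a pseudocount of 0.1, genes active in both lines alone and each library left out in turn, CLOCK stayed lower at 50 nM (adjusted p from 2.02e-05 to 0.00511) and at 200 nM (4.09e-05 to 0.0487) throughout. CRY1 at 50 nM lost its call when scaled to the ribosomal protein genes (0.37, adjusted p = 0.132), without the 50 nM library of A673 (adjusted p = 0.213) and without that of SKNMC (adjusted p = 0.0592), and PER3 at 50 nM without either of these libraries. At 200 nM the 75th percentile scaling left 2 of the 8, CLOCK and PER3, against 27.5% of all tested genes, and the ribosomal protein scaling gave 10 of 10 against 67.8%. Without the 200 nM library of SKNMC 5 of the 8 passed, against 37.2%, and ARNTL, PER2 and PER3 did not. ARNTL and CRY2 also lost the call without the DMSO or the 200 nM library of A673, and PER2 without the 50 nM library of SKNMC. Between the doses, the call of CRY1 was lost without the 50 nM library of A673, and that of NR1D2 with the 75th percentile scaling and without the 50 nM or the 200 nM library of SKNMC. Calls were also gained. CRY2 and NR1D1 passed as lower at 200 nM than at 50 nM with a pseudocount of 0.1, with the ribosomal protein scaling and among genes active in both lines. PER1 and BHLHE40 passed as lower at 50 nM with the ribosomal protein scaling. Leaving out single libraries added calls too.

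**Figure D3:**
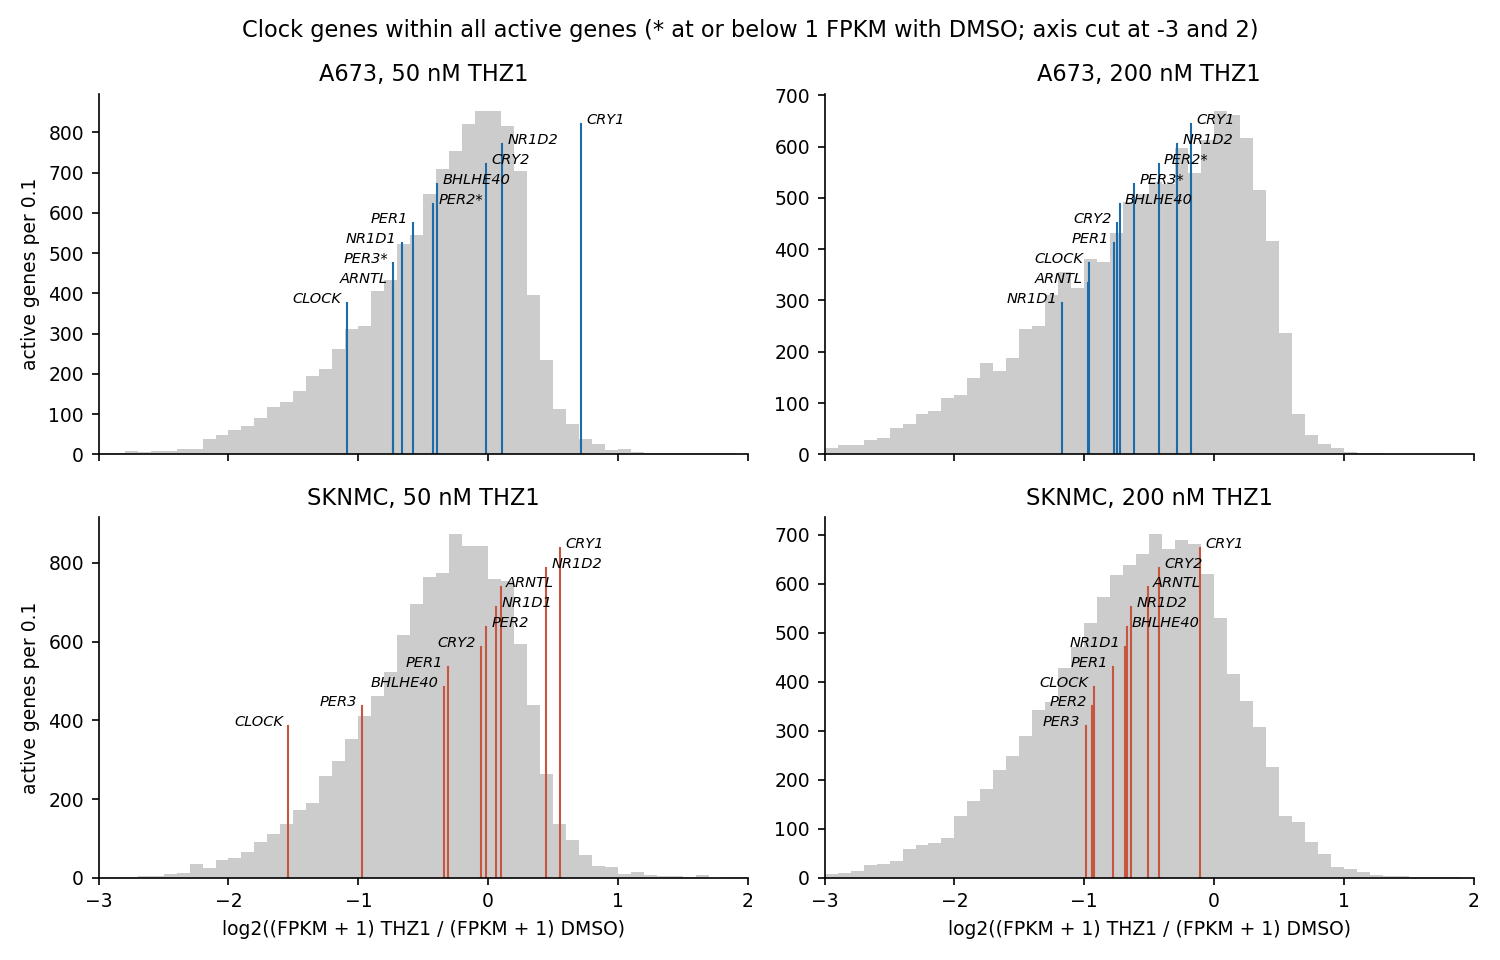
Distribution over all active genes of the log2 ratio of FPKM + 1 to DMSO (x axis, cut at -3 and 2) for each line and dose, as genes per 0.1 (y axis), with the clock genes as vertical lines whose height has no meaning; an asterisk marks those at or below 1 FPKM with DMSO. CRY1 sits at the upper end at 50 nM, with 99.1% of active genes below it in A673, and CLOCK at the lower side, with 4.56% below it in SKNMC.

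Between the doses, most clock genes were lower at 200 nM than at 50 nM. In A673 8 of 10 were lower, and none by at least 2-fold, where 51.7% of active genes were lower at all and 7.44% at least 2-fold. The 10 include PER2 and PER3, which were not active in A673, and PER2 counts as lower at -0.0004 on the log2 scale. In SKNMC 9 of 10 were lower and NR1D2 by at least 2-fold (-1.08 on the log2 scale, 200 nM over 50 nM), against 62.0% and 8.39% of active genes. None of the 10 was at least 2-fold higher at 200 nM in either line, where 0.117% of active genes in A673 and 0.37% in SKNMC were. The median ratio of 200 nM over 50 nM was -0.29 in A673 and -0.54 in SKNMC, compared with -0.02 and -0.14 over all active genes. CRY1 (-0.90 and -0.66), CRY2 (-0.73 and -0.37) and NR1D1 (-0.50 and -0.74) were lower at 200 nM in A673 and SKNMC. CLOCK went the other way in both lines (0.12 and 0.61), as did PER3 in A673 (0.11), while PER3 in SKNMC (-0.02) turned with the 75th percentile scaling. PER2 differed between the doses in SKNMC (-0.92) and not measurably in A673, where it was at 0.254 and 0.253 FPKM.

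Ratios within a library do not depend on how libraries are scaled, and they were computed after the values had been seen. The summed PER and CRY level over the summed CLOCK and ARNTL level was 6.68 with DMSO, 24.5 with 50 nM and 14.3 with 200 nM in A673. In SKNMC it was 2.92, 7.71 and 4.02. In both lines the ratio of these sums was thus highest at 50 nM and remained above DMSO at 200 nM. The repressors NR1D1, NR1D2 and BHLHE40 are not in the PER and CRY sum. The paralogs NPAS2 and ARNTL2 are not in the CLOCK and ARNTL sum. In A673 NPAS2 was at 4.80, 3.05 and 3.46 FPKM with DMSO, 50 nM and 200 nM, and ARNTL2 at 2.37, 2.42 and 2.92 FPKM. The ratio with these genes added was not computed. CRY1 made up 58.3%, 74.8% and 70.5% of the PER and CRY sum in A673 and 34.8%, 51.2% and 48.6% in SKNMC. ARNTL over CLOCK was 0.588, 0.756 and 0.434 in A673 and 0.159, 0.645 and 0.167 in SKNMC, and PER1 over PER2 was 7.51, 12.3 and 10.3 in A673 and 2.65, 2.10 and 3.96 in SKNMC. The last of these moved in opposite ways at 50 nM, up in A673 and down in SKNMC, a difference that was not tested. In A673 it divides by PER2 at 0.683, 0.254 and 0.253 FPKM, all below the limit of activity.

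**Figure D4:**
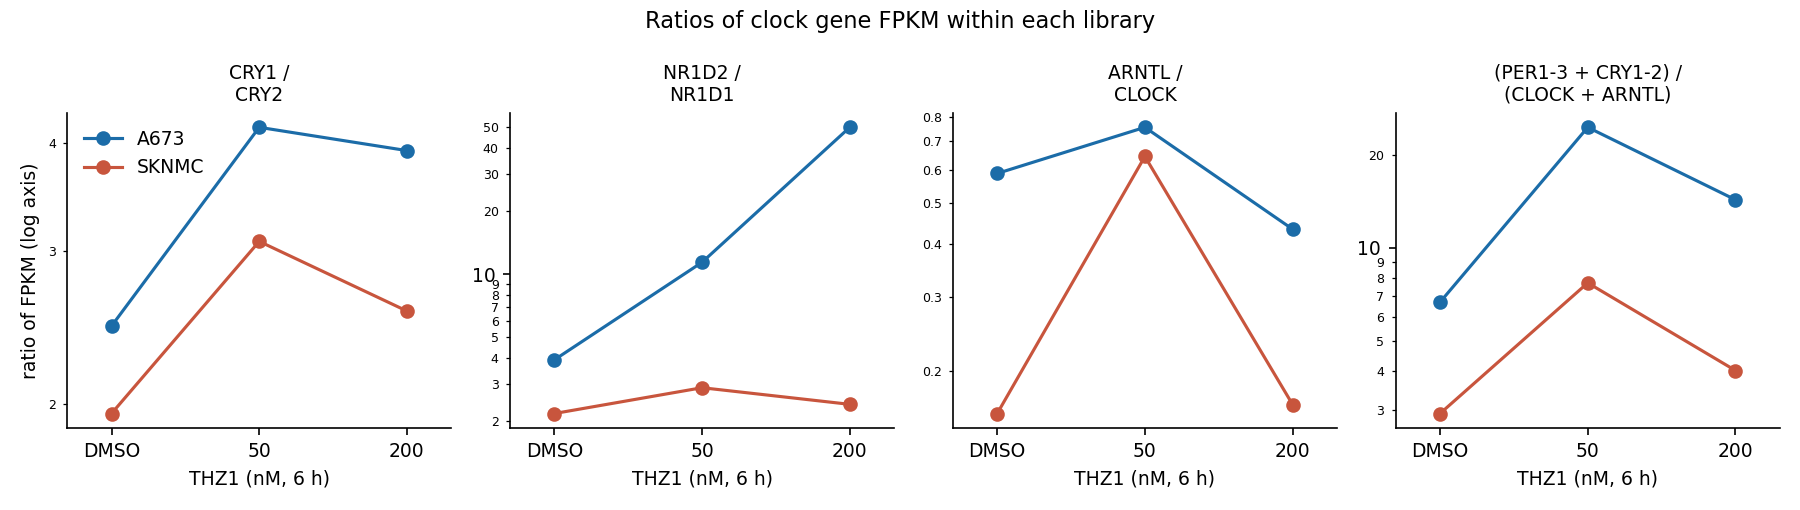
Ratios of FPKM between clock genes of the same library (y axis, log scale) with DMSO, 50 nM and 200 nM THZ1 (x axis), 1 library per point, lines joining the libraries of a line and no error bars. The ratio of PER and CRY to CLOCK and ARNTL is highest at 50 nM in both lines (24.5 in A673, 7.71 in SKNMC). NR1D2 over NR1D1 reaches 50.1 in A673 at 200 nM, where NR1D1 is at 0.0894 FPKM.

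Other genes of the clock were read from a list of 42, of which 41 were in the table, CIART under its earlier symbol C1orf51. Of these 33 were active in A673 and 35 in SKNMC. At 50 nM 1 of 33 in A673 and 4 of 35 in SKNMC were at least 2-fold lower, and at 200 nM 10 of 33 and 13 of 35, beside the shares of all active genes given above (15.9%, 15.8%, 25.3% and 27.3%). DYRK1A, a kinase that acts on CRY2, was at least 2-fold higher in A673 at 50 nM (1.09 on the log2 scale). It was 1 of 33 active genes of the list there, against 0.343% of all active genes, and the single gene past 2-fold upward in any comparison. With the ribosomal protein scaling 0 were. At 200 nM DYRK1A was below DMSO in A673 (-0.53) and SKNMC (-0.45). The median of the list was -0.10 and -0.64 in A673 and -0.05 and -0.71 in SKNMC at 50 and 200 nM, compared with -0.27, -0.40, -0.32 and -0.55 over all active genes.

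On the deposited scale the D-box activators DBP, TEF and HLF were below DMSO in every THZ1 library. Of DBP, TEF, HLF and NFIL3, 0 of 3 active genes at 50 nM and 1 of 3 at 200 nM were at least 2-fold lower in A673 (15.9% and 25.3% of all active genes), and 3 of 4 at each dose in SKNMC (15.8% and 27.3%). TEF was at 1.21, 0.205 and 0.145 FPKM in A673 and at 3.43, 0.392 and 0.345 FPKM in SKNMC, or 16.9%, 11.9%, 11.5% and 10.1% of DMSO. DBP was at 2.59, 1.26 and 1.51 FPKM in A673 and 10.9, 4.21 and 5.05 FPKM in SKNMC. HLF, above 1 FPKM in SKNMC only, was there at 5.38, 1.99 and 1.18 FPKM. NFIL3, their repressor, was at 6.56, 8.42 and 2.11 FPKM in A673 and 3.55, 6.49 and 1.21 FPKM in SKNMC, so that like CRY1 it was highest at 50 nM in both lines, and its 200 nM ratios were -1.28 and -1.04.

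Among the kinases and ubiquitin ligase parts that set the stability of PER and CRY, 0 of 13 active genes at 50 nM and 4 of 13 at 200 nM were at least 2-fold lower in A673 (15.9% and 25.3% of all active genes), and 1 of 14 and 6 of 14 in SKNMC (15.8% and 27.3%). Below DMSO by any amount were 6 and 11 of 13 in A673 and 8 and 13 of 14 in SKNMC, against 70.1%, 70.4%, 73.0% and 80.8% of active genes. CSNK1D, a casein kinase that phosphorylates PER, was at 45.9, 23.9 and 19.4 FPKM in A673 and 56.4, 24.8 and 23.7 FPKM in SKNMC. CSNK1E, its paralog, was at 71.0, 79.4 and 54.6 FPKM in A673 and 77.0, 92.9 and 55.9 FPKM in SKNMC. SKP1, another SCF part, was above DMSO in all 4 comparisons, at 142% and 138% in A673 and 132% and 121% in SKNMC. CUL1, the scaffold of SCF ubiquitin ligases, had 200 nM ratios of -1.51 and -1.57, and CSNK2A2, a casein kinase 2 subunit, of -1.26 and -1.43. USP2, a deubiquitinase above 1 FPKM in SKNMC only, was at 2.77, 1.37 and 0.624 FPKM there.

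For the chromatin cofactors and the groups after them, the shares of all active genes that were at least 2-fold lower are again 15.9% and 25.3% in A673 and 15.8% and 27.3% in SKNMC. Of the cofactors, 1 of 10 active genes at 50 nM and 4 of 10 at 200 nM were at least 2-fold lower in A673, and 0 of 10 and 2 of 10 in SKNMC. SIRT1, a deacetylase that opposes CLOCK, was at 24.3, 11.2 and 4.70 FPKM in A673 and 16.5, 8.18 and 3.88 FPKM in SKNMC, and EP300, an acetyltransferase coactivator, had 200 nM ratios of -1.53 and -1.61. Of the clock-controlled genes, 0 of 4 at 50 nM and 1 of 4 at 200 nM in A673, and 0 of 4 and 2 of 4 in SKNMC, were at least 2-fold lower, among them WEE1, the cell cycle kinase, at -2.09 and -2.35 with 200 nM. Of the loop paralogs 0 of 3 active genes were past 2-fold in each comparison. NPAS2, a paralog of CLOCK, was above 1 FPKM in A673 only, at 4.80, 3.05 and 3.46 FPKM, and RORA, an activator of ARNTL, in SKNMC only, at 1.93, 2.04 and 1.5 FPKM.

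**Figure D5:**
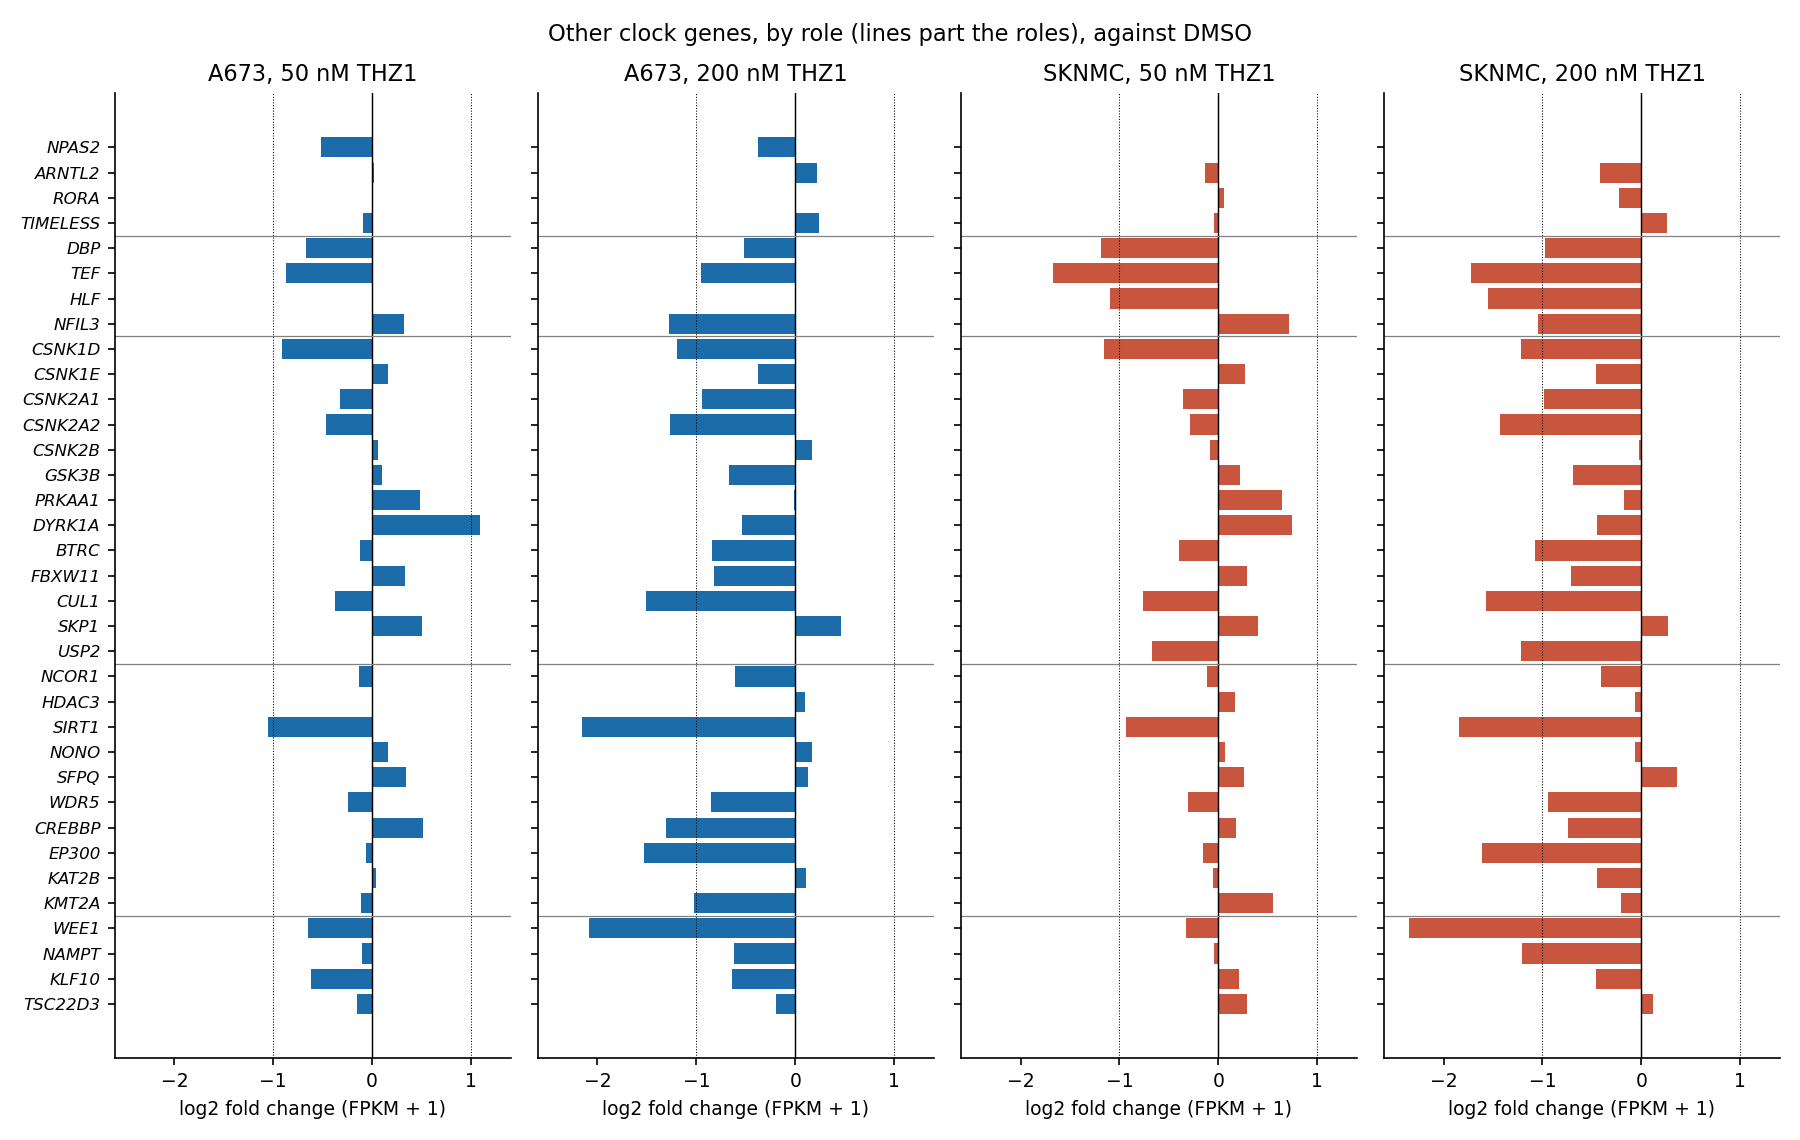
Log2 ratio of FPKM + 1 to DMSO (x axis) for the other clock genes (y axis), by role, with 1 panel per line and dose, 1 value per bar, no bar where a gene was not active in the line, 1 gene of the list left out, dotted lines at 2-fold and no error bars since each condition is 1 library. WEE1 has the lowest values at 200 nM in SKNMC (-2.35), and DYRK1A the highest at 50 nM in A673 (1.09).

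The genes whose 4 ratios lay nearest to those of CLOCK and of CRY1, the members with the lowest (-1.13) and highest (0.25) mean log2 ratio, were sought among 10574 genes active in both lines by Euclidean distance. Nearest to CLOCK were SP2 (distance 0.113), TRMT13 (0.226) and CTNS (0.231). SP2 had ratios of -1.13 and -1.02 in A673 and -1.63 and -0.91 in SKNMC. Nearest to CRY1 were BCLAF1 (0.125), ANKRD11 (0.127) and RC3H1 (0.204). BCLAF1 had ratios of 0.71 and -0.08 in A673 and 0.62 and -0.13 in SKNMC. Both sets of neighbours come from the same 6 libraries, and the likeness is a description.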

How the data were processed

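RNA-seq libraries of A673 and SKNMC cells, 1 per condition, were grouped by their sample labels. The authors prepared paired-end libraries and aligned the reads to hg19 with STAR. For the estimation of expression, the paper names StringTie and the submitters' processing notes name Cufflinks, with no version given in the sources used here, and use of strand in counting is not stated. The authors deposited FPKM values of 27420 genes, protein-coding (20311) and lincRNA (7109). Although the table is titled as average expression, the labels list a single library for each condition, so a column was taken as 1 library. The authors also deposited 4 columns of log2 fold changes of their own comparisons, which were not used.

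From the FPKM columns, log2((FPKM + 1 with THZ1) / (FPKM + 1 with DMSO)) was computed with python 3.11.15, numpy 2.4.6 and pandas 2.3.3, and the figures were drawn with matplotlib 3.10.9. This scale understates the change of low genes. Active genes were above 1 FPKM in the DMSO library of a line, and the threshold was 2-fold. Within a line no test was made, since each condition is 1 library. A fit over both lines with line and dose as additive terms (R 4.3.3, limma 3.58.1 with a trended prior, threshold 0.05 on the adjusted p) was added after seeing the data. FPKM holds no read counts, so the depth is unknown and no counting interval is given. In simulated data with 200 genes changed by 3 on the log2 scale, the 2-fold counts recovered 200 in each line and the fit over both lines (50 nM over DMSO) 200 among 12399 genes, with 9 false calls. Planted changes of this size pass a 2-fold threshold almost by construction. They exceed every ratio of the clock genes to DMSO on the scale of FPKM + 1. With a pseudocount of 0.1, NR1D1 in A673 at 200 nM was at -3.03. The simulated spread was set by hand, and the fit was given the same change in both lines. The recovery thus checks the code and does not measure power or false calls in these data.

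The members, the extended list, the markers and the rules were chosen with earlier results of these data known. The genes named were all 10 members; of the extended list those past 2-fold in the same direction at 1 dose or more in both lines or above 1 FPKM in 1 line only; and the 3 genes nearest by pattern to the members with the lowest and highest mean ratio. Of the genes so chosen, 1 is counted with its list but not reported here by name. DBP, TEF, DYRK1A, CSNK1E and SKP1 were named after their values were seen. Alternatives were a pseudocount of 0.1, 3 rescalings, other filters (above 1 FPKM in any library, above 5 FPKM with DMSO, none), 1.5-fold and protein-coding genes alone. Within-library ratios, ratios without a pseudocount and counts between the DMSO libraries were added after seeing the data. Promoter windows came from RefSeq (GRCh38.p14) and gene spans from the deposited table (hg19). Protein sequences were not used here.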

Additional observations from a re-analysis of the deposited data

Results flagged for a closer look

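None of the 8 clock genes active in both lines moved in opposite directions in A673 and SKNMC at both doses. Of 32 further genes of the clock active in both lines, 4 did, where 5.27% of all 10574 genes active in both lines did. This difference was not tested, and the values are the mean log2 ratio of A673 minus that of SKNMC. For ARNTL2, a paralog of ARNTL, the difference was 0.40, from 2.37, 2.42 and 2.92 FPKM in A673 and 3.28, 2.90 and 2.21 FPKM in SKNMC with DMSO, 50 nM and 200 nM. For KAT2B, an acetyltransferase, it was 0.32, from 1.48, 1.55 and 1.67 FPKM in A673 and 3.42, 3.27 and 2.25 FPKM in SKNMC. For CSNK2B, the regulatory subunit of casein kinase 2, it was 0.17, from 149, 155 and 168 FPKM in A673 and 158, 149 and 155 FPKM in SKNMC. For TSC22D3, a clock-controlled gene, it was -0.38, from 8.63, 7.67 and 7.39 FPKM in A673 and 8.50, 10.6 and 9.29 FPKM in SKNMC. The opposite directions of ARNTL2, KAT2B and TSC22D3 held under 1 of 3 rescalings each and those of CSNK2B under 0 of 3.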

How the results depend on the processing

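The values within a line rest on 1 library per condition, so no library can be left out of them; the fit over both lines pairs the doses by line, and its values follow at the end. In the following, counts are of active genes past 2-fold unless said otherwise, and the cause of a difference from the values of the report was not tested. With a 1.5-fold threshold, the clock genes lower at 50 and 200 nM were 3 and 6 in A673 and 2 and 7 in SKNMC, with 1 higher in A673 at 50 nM (all active genes lower: 31.8% and 41.1%, 33.5% and 48%; higher there: 1.78%), and the further genes lower were 6 and 19 in A673 and 7 in SKNMC at 50 nM, with 3 higher there. Scaled to the 75th percentile, no clock gene (0) was lower in A673 at 50 nM (11% of active genes) or in SKNMC at 200 over 50 nM (5.05%). The median of the clock genes was then -0.30 and -0.50 in A673 and 0.20 and -0.26 in SKNMC at 50 and 200 nM, -0.33 for 200 over 50 nM in SKNMC and -0.88 for A673 over SKNMC with DMSO. For the further genes, 0 and 6 were lower in A673 and 1 and 7 in SKNMC, with 1 higher in SKNMC at 50 nM (all active genes lower: 11% and 17.3%, 10.3% and 13.4%), and the medians were 0.14 and -0.29 in A673 and 0.21 and -0.17 in SKNMC.

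Scaled to the ribosomal protein genes, 5 clock genes were lower in A673 at 200 nM (34.7% of active genes) and 1 at 200 over 50 nM (8.71%), 2 and 7 in SKNMC at 50 and 200 nM (25.4% and 49.5%), and between the DMSO libraries 2 were lower and 1 higher in A673 (8.98% and 16.6%). The medians were -0.64 and -1.03 in A673, -0.30 and -1.11 in SKNMC and -0.32 for A673 over SKNMC. For the further genes, 2 were lower and 0 higher in A673 at 50 nM and 20 lower in SKNMC at 200 nM, with medians of -0.31 and -0.98 in A673 and -0.37 and -1.24 in SKNMC. With a pseudocount of 0.1, 3 and 4 clock genes were lower in A673 (21.6% and 31.1% of active genes) and 2 and 3 in SKNMC (22.5% and 34.3%), 1 and 3 at 200 over 50 nM in A673 and SKNMC (11.7% and 13%), and 2 further genes in A673 at 50 nM. The medians of the clock genes were -0.62 and -1.01 in A673, -0.48 at 200 over 50 nM in A673 and -0.91 at 200 nM in SKNMC. Without a pseudocount, chosen after seeing the data, 3 and 4 clock genes were lower in A673 (22.4% and 31.8%) and 2 and 3 in SKNMC (23.5% and 35%), and 3 further genes in A673 at 50 nM. Above 5 FPKM with DMSO, 0 clock genes were lower in A673 at either dose (16.3% and 26.8%), with medians of 0.046 and -0.51 there and of 0.0039 at 50 nM in SKNMC, and the median of the further genes in A673 at 200 nM was -0.75. With no filter the medians of the further genes at 200 nM were -0.53 in A673 and -0.45 in SKNMC. The common sum moved no count or median of the clock genes past these limits.

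In the fit over both lines, 2 clock genes were lower and 1 higher at 50 nM, 8 lower at 200 nM and 2 lower at 200 over 50 nM. The ribosomal protein scaling gave 4 lower and 0 higher at 50 nM (47.6% and 0.879% of all tested genes) and 4 lower at 200 over 50 nM (22.5%). The 75th percentile scaling gave 2 lower at 200 nM (27.5%) and 1 at 200 over 50 nM (13.5%), a pseudocount of 0.1 gave 4 at 200 over 50 nM (19.9%), and genes active in both lines gave 1 of 8 lower at 50 nM (38.5%) and 4 of 8 at 200 over 50 nM (23.2%). With each library left out in turn, where a lone library is assumed to vary like the rest, 1 to 3 clock genes were lower and 0 to 1 higher at 50 nM, 5 to 8 lower at 200 nM and 1 to 4 lower at 200 over 50 nM. The number at 50 nM went to 1 without either 50 nM library (19.1% without that of A673, 20.6% without that of SKNMC). At 200 over 50 nM it went to 1 without the same libraries (11.8% and 8.02%) and to 4 without either DMSO library (22.8% without that of A673, 22.7% without that of SKNMC).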
